A study of Mus musculus with 8 samples.

Results

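AP-1 is a family of paired transcription factors, and the 9 genes described here were 4 Fos genes (Fos, Fosb, Fosl1 and Fosl2), 3 Jun genes (Jun, Junb and Jund), the related factor Atf3 and the zinc finger factor Egr1. They were selected by symbol from the 32285 genes counted, without use of their levels, and all 9 had a row in every library. The study set viral oncogenes and active YAP, alone and together, against control tissue, and profiled sorted viable cells of the mouse tongue epithelium by droplet sequencing 15 days after induction. Every mouse carried Krt14-CreERT and LSL-rtTA, and by the study's methods a tetON_H2B-GFP reporter, so that tamoxifen injected into the tongue and doxycycline in the diet turned on tetON transgenes in Krt14-expressing basal cells. The mice were littermates of 8 to 16 weeks. N mice had no further oncogenic transgene, E mice had tetON_E6-E7 from a human papillomavirus, Y mice had tetON_YAP1S127A, an active form of the coactivator YAP1, and EY mice had both. There were 2 libraries per group, named N1, N2 and so on, and the title of N2 holds more than 1 animal number, so N2 may pool animals.

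Fos and Jun proteins form pairs that bind DNA, and many of their genes are immediate early genes, which are transcribed within minutes of a growth factor, wound or stress signal from factors already in the cell. In stratified epithelium AP-1 factors act in proliferation, wound repair and differentiation, and YAP with its TEAD partners is known to occupy many enhancers together with AP-1. The same genes are also known to be switched on by warm enzymatic tissue dissociation. Here collagenase, dispase and trypsin at 37 °C preceded the sort, and immune cells from the same suspensions, in which the Krt14 promoter should be silent, were therefore described beside the epithelial cells.

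Epithelial cells were those with at least 0.5% of unique molecular identifiers (UMIs) from Krt5, Krt14, Krt15, Krt13 and Krt6a and no UMI of the leukocyte gene Ptprc. Immune cells had at least 1 Ptprc UMI and less keratin. Of 42550 barcodes, 25199 met the study's cell limits, 12957 as epithelial and 10739 as immune cells. Epithelial cells numbered 3447 and 415 for N1 and N2, 4055 and 553 for E1 and E2, 1289 and 1001 for Y1 and Y2, and 170 and 2027 for EY1 and EY2. Without the upper limits on genes and UMIs they numbered 3521 and 741 for N and 4185 and 944 for E. For Y they then numbered 1897 and 1588, and for EY 481 and 2462. The upper limits thus removed unlike shares of the libraries, and the part of this in the results was not tested. All 7 epithelial markers were present in every epithelial sum. Median UMIs per epithelial cell ran from 12575 to 23570 over the libraries, and pairs of libraries shared 2 to 19 barcodes. Values that moved with the groups were the median mitochondrial percentage of epithelial cells, at 3.34 to 4.86% in N, E and Y and 2.32 and 2.73% in EY1 and EY2, the summed level of 10 immune markers in epithelial sums, at 51.2 to 70.2 CPM (UMIs scaled to a common library total) in N and E, at most 224 in Y and 645 to 2238 in EY, and that of 6 fibroblast markers, at 725 to 1227 CPM in N and E, 338 and 805 in Y and 28.3 and 254 in EY. Their part in the results was not tested. Yap1, whose reads can come from the transgene as well as the mouse gene, was at 34.5 and 41.7 CPM in N, 31.5 and 46.1 in E, 215 and 447 in Y and 216 and 174 in EY.

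The promoter letters of Fos, Fosb and Atf3 are shown as examples. These members were picked because they fell or narrowly missed the test in EY and carry TGACG, so the choice shows no link between the 2 traits. TGACG is the core of a cyclic AMP response element, the kind of site through which Fos is known to be induced. Jund, at an adjusted p of 0.0611 by edgeR in EY vs N, did not hold it, and Junb, at 0.140, did. The RefSeq windows (GRCm38.p6, from 250 bases before to 50 after the annotated start) held 7 of the 9 members, and the other two are Fosl1 and Egr1. Capitals mark TGACG on either strand. The Fos window is chr12:85473640-85473939 (+ strand), that of Fosb chr7:19309996-19310295 (- strand) and that of Atf3 chr1:191183284-191183583 (- strand), inside the annotated span of Atf3.
Fos: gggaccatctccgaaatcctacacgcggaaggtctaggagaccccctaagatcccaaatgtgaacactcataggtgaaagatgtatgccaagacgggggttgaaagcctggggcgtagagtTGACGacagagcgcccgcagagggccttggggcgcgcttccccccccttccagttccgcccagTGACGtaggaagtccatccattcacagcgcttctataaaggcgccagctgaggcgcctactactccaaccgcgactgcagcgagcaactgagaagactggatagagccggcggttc
Fosb: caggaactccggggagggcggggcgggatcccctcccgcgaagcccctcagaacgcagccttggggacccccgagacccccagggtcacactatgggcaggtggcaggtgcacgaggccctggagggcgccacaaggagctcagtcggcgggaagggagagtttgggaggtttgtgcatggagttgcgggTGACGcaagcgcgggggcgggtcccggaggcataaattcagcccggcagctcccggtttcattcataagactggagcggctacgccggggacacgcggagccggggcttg
Atf3: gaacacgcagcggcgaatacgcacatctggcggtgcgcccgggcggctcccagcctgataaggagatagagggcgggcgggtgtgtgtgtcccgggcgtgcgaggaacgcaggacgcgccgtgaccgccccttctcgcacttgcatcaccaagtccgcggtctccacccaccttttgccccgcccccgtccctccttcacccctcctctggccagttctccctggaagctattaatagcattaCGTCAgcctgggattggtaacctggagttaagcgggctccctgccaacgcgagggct
Fos held TGACG at 129 and 66 bases before the start, Fosb at 60 and Atf3 at 7 bases before it, the last on the opposite strand. Among the 7 members 4 held it (Junb was the other one), against 20.8% of 32851 windows in the table. None of the 7 held the full AP-1 site TGANTCA (7.81% of windows), the full element TGACGTCA (1.79%), which contains TGACG, the TEAD motif GGAATG (14.7%) or a CArG box (1.63%). A match is a description of letters, not evidence that a factor binds there. Letters outside these windows were not searched, so a motif absent here may lie farther from the start.

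In the GRCm38 annotation the Fos gene lies at chr12:85473890-85477273, Fosb at chr7:19302696-19310051, Fosl1 at chr19:5447547-5455946, Fosl2 at chr5:32135801-32157842, Jun at chr4:95049034-95052222, Junb at chr8:84974484-84978718, Jund at chr8:70698949-70700616, Atf3 at chr1:191170296-191218039 and Egr1 at chr18:34859823-34864984. The UMIs were assigned to whole genes, and Jun and Jund consist of 1 exon each.

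With both transgenes, epithelial cells had lower levels of Fos, Fosb and Egr1 than control cells, each by about 3-fold (3.07, 3.15 and 3.11). All 9 members had a lower mean in EY than in N, and 3 of them passed the test, beside 18.8% of the 13555 genes tested. EY lay below N without overlap for 8 of 9 members (all but Jun) and for 33.9% of genes. The 3 calls were lost when N1, N2 or EY2 was left out. No member passed with E6-E7 alone or active YAP alone. The members' log2 changes had a median of -0.72 in EY vs N, where the median over all genes was -0.05.

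Fos, the first-described partner of Jun, was at 2256 and 1374 CPM in N, 1677 and 1379 in E, 1461 and 603 in Y and 648 and 534 in EY. Both EY libraries lay below both N libraries and Y2 lay with them, while Y1 lay inside the range of N and E. The mean was 1815 ± 624 CPM in N and 591 ± 80.6 in EY (SD, n = 2), a log2 change of -1.62 (SE 0.41) with an adjusted p of 0.0366 by edgeR's quasi-likelihood test with Benjamini-Hochberg adjustment, which gave every adjusted p here. Fosb, a Fos protein with its own short and long forms, was at 893 and 578 CPM in N, 702 and 703 in E, 648 and 357 in Y and 278 and 191 in EY. Its 2 EY libraries were the lowest of the 8, and the log2 change was -1.66 (SE 0.34, adjusted p = 0.0213). Egr1, which binds GC-rich DNA and is not an AP-1 protein, stood at 678 and 462 CPM in N, 538 and 406 in E, 446 and 246 in Y and 210 and 158 in EY. EY was again lowest of the 8 libraries, at a log2 change of -1.64 (SE 0.33, adjusted p = 0.0213).

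**Figure D1:**
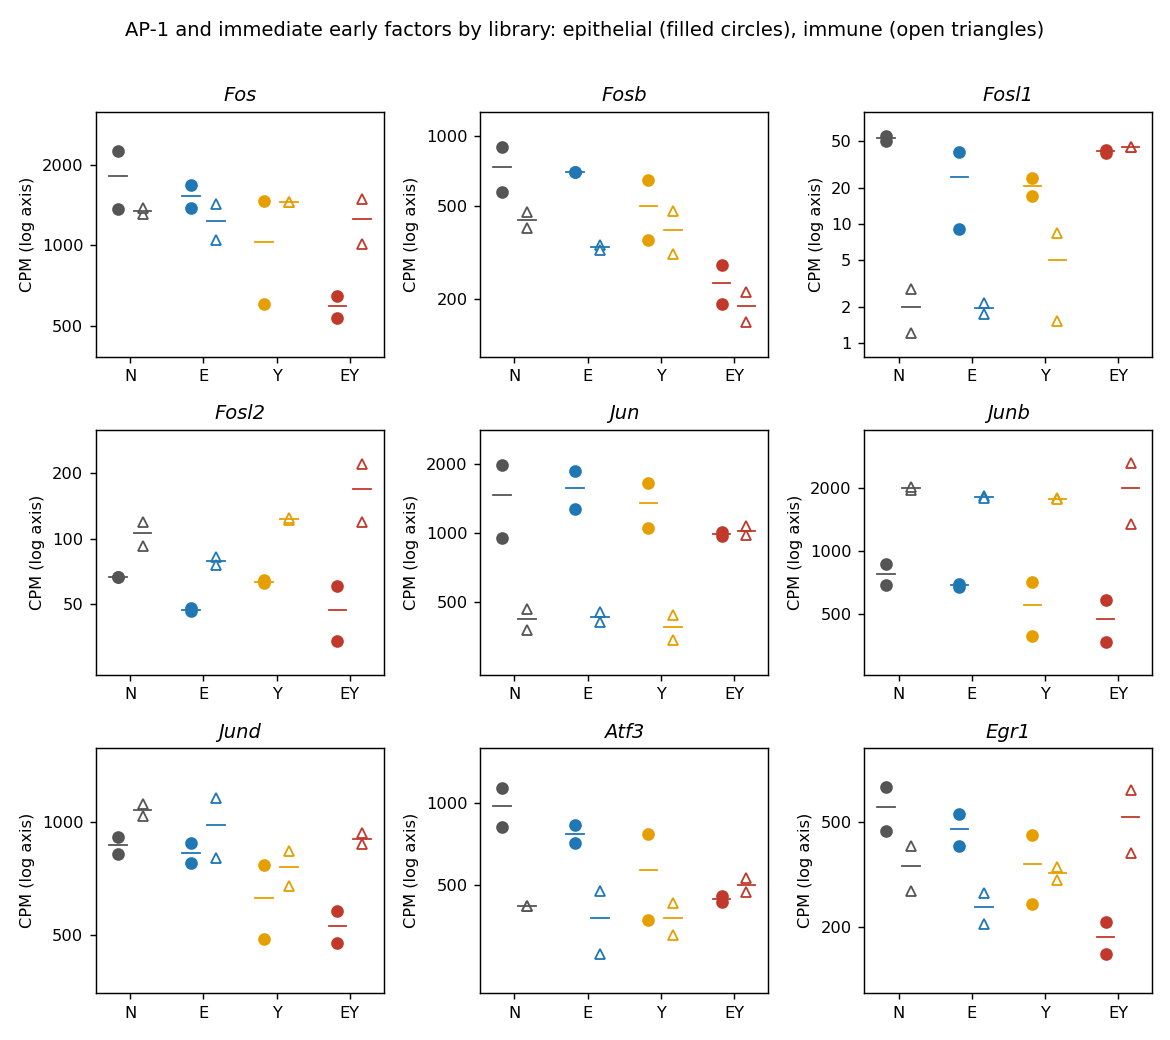
Level of each of the 9 genes in CPM (log axis, a scale of its own in each panel) for the groups N, E, Y and EY, with 1 point per library and a short line at the group mean. Filled circles are epithelial sums and open triangles immune sums. In EY the epithelial points of Fos, Fosb and Egr1 lie below those of N, and immune Fosl1 and Jun lie above those of the other groups.

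Atf3, a stress-induced member that can pair with Jun proteins, missed the threshold narrowly. Its levels were 1136 and 812 CPM in N, 826 and 711 in E, 767 and 370 in Y and 433 and 455 in EY, a log2 difference of -1.13 between EY and N (SE 0.33, adjusted p = 0.0505). Jund, the Jun gene known for steady expression, was at 915 and 822 CPM in N, 781 and 878 in E, 768 and 488 in Y and 580 and 478 in EY, with a log2 difference of -0.72 (SE 0.23, adjusted p = 0.0611). Every library with active YAP was below every library without it for Jund, as held for 10.5% of genes, and this was so for no other member.

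Junb and Jun had wider spread. Junb, which can restrain Jun in keratinocytes, was at 866 and 684 CPM in N, 672 and 695 in E, 713 and 390 in Y and 580 and 365 in EY (log2 difference of EY from N -0.72, SE 0.32, adjusted p = 0.140). Jun, the partner of most Fos pairs, was at 1974 and 946 CPM in N, 1864 and 1264 in E, 1649 and 1047 in Y and 1011 and 969 in EY. The EY and N libraries of Jun overlapped, since N2 was lower than both of EY (log2 difference -0.56, SE 0.37, adjusted p = 0.296), and without N1 the difference was 0.10.

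Fosl1 and Fosl2, the Fos proteins that lack a transactivation domain of the Fos kind, had a pattern of their own. Fosl1 was at 55.6 and 49.7 CPM in N, 40.7 and 9.09 in E, 24.2 and 17.3 in Y and 39.4 and 42.4 in EY. It was lower in each E, Y and EY library than in both N libraries, and none of these differences passed the test (adjusted p = 1, 0.402 and 0.665). Fosl2 was at 66.6 and 66.9 CPM in N, 46.2 and 48.0 in E, 64.6 and 62.2 in Y and 60.5 and 33.7 in EY. E lay below N for Fosl2 with little spread, at a log2 difference of -0.50 (SE 0.24, adjusted p = 1).

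**Figure D2:**
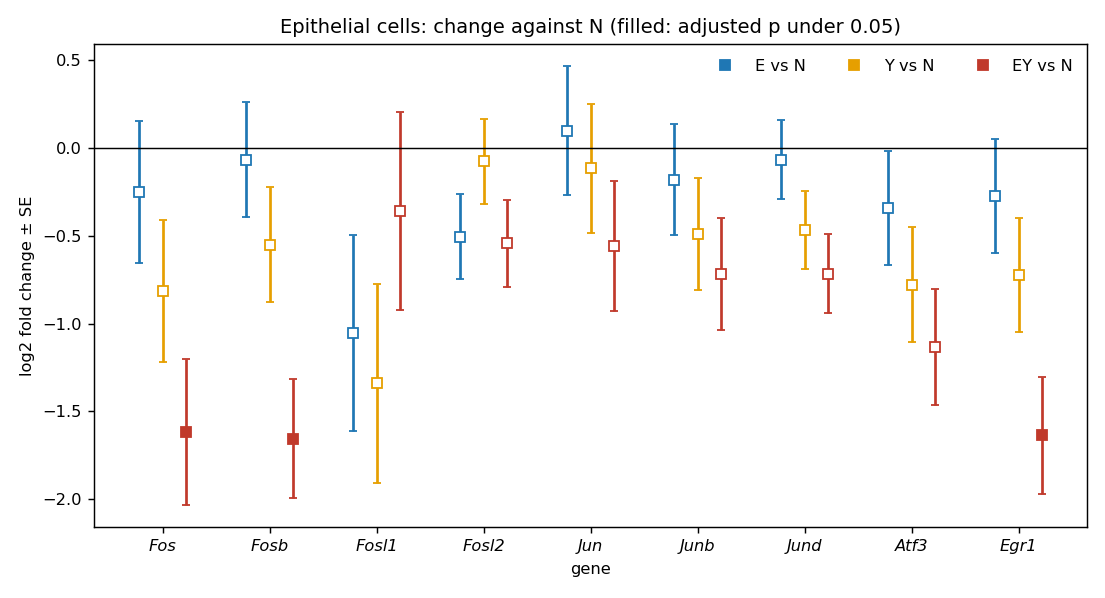
Log2 fold change against N in epithelial cells for each gene, with the SE as bars, for E, Y and EY. Filled squares mark an adjusted p under 0.05, which only Fos, Fosb and Egr1 reach, all in EY vs N.

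Single transgenes gave smaller differences than EY for Fos, Fosb and Egr1, all against the same 2 N libraries. Fosl1 went the other way, with log2 differences of -1.05 in E vs N, -1.34 in Y vs N and -0.36 in EY vs N. In E vs N 0 of 9 members were called by edgeR (0.243% of genes were), 0 had an unadjusted p under 0.05, and DESeq2 called 0. In Y vs N 0 of 9 were called (0.457% of genes), 2 had an unadjusted p under 0.05, and DESeq2 called 0. The log2 difference of Fos was -0.25 (SE 0.40) in E vs N and -0.81 (SE 0.41) in Y vs N, that of Fosb -0.07 (SE 0.33) and -0.55 (SE 0.33), and that of Egr1 -0.27 (SE 0.32) and -0.72 (SE 0.33). The values of Y vs N depended on which Y library was used. Without Y1 they were -1.59 for Fos, -1.04 for Fosb and -1.21 for Egr1, and without Y2 they were -0.34, -0.21 and -0.38. The median over the 9 members was -0.55 with both, -1.04 without Y1 and -0.21 without Y2.

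With active YAP added to E6-E7, 2 of 9 members were called lower, a share near the 16.4% of all genes called. In EY vs E, where 16.4% of genes were called, Fosb had a log2 change of -1.59 (SE 0.34, adjusted p = 0.0259) and Egr1 one of -1.36 (SE 0.33, adjusted p = 0.0352), and Fos had a difference of -1.37 (SE 0.41, adjusted p = 0.0595). Both calls were lost without E1, E2 or EY2, and that of Egr1 also without N1. Without E1 the 1 member called was Fosl1, with a log2 change of 2.17 (adjusted p = 0.0447). Adding E6-E7 to active YAP called 0 of 9 members by edgeR (0.0443% of genes), with 2 at an unadjusted p under 0.05 and 1 called by DESeq2. In EY vs Y 8 of 9 members were negative with a median of -0.44, and without Y1 5 were negative with a median of -0.02. The means of Fos stood in the order N, E, Y and EY, at 1815, 1528, 1032 and 591 CPM, and neither E from N nor EY from Y differed by the test.

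Across all 4 groups, libraries with active YAP were set against those without it, with E6-E7 held in the model. Egr1 was the 1 of 9 members called, a share near the 8.98% of all genes called. Its log2 change was -1.04 (SE 0.25, adjusted p = 0.0389). Just past the threshold were Fos at -1.09 (SE 0.29, adjusted p = 0.0513), Fosb at -1.07 (SE 0.29, adjusted p = 0.0541), Jund at -0.56 (SE 0.15, adjusted p = 0.0565) and Atf3 at -0.78 (SE 0.22, adjusted p = 0.0565). All 9 members had a negative YAP effect. For the effect of E6-E7 with YAP held, 0 members were called by edgeR (0.406% of genes) and 0 by DESeq2, and 2 had an unadjusted p under 0.05. Without any 1 of the libraries N1, E1, E2, Y2, EY1 or EY2 the count for YAP was 0, without N2 it was 3 and without Y1 it was 5.

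Immune cells of the same libraries gave a partly different picture. Fos in immune cells was at 1308 and 1381 CPM in N, 1433 and 1044 in E, 1455 and 1453 in Y and 1487 and 1013 in EY, with a log2 difference of EY from N of -0.10 (SE 0.24, adjusted p = 0.799). The EY libraries of Fos fell on either side of N. Fosb in immune cells was at 403 and 472 CPM in N, 339 and 325 in E, 311 and 476 in Y and 159 and 213 in EY. Its log2 change was -1.23 (SE 0.26, adjusted p = 0.0253), so lower Fosb in EY was found in both cell classes.

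Jun and Fosl1 rose in the immune cells of EY. Jun was at 465 and 377 CPM in N, 451 and 408 in E, 340 and 436 in Y and 976 and 1066 in EY (log2 change 1.28, SE 0.21, adjusted p = 0.0133). Fosl1 was at 1.2 and 2.82 CPM in N, from 4 and 37 UMIs, at 2.17 and 1.76 in E, 8.41 and 1.52 in Y and 44.9 and 44.3 in EY, from 540 and 132 UMIs (log2 change 4.28, SE 0.72, adjusted p = 0.0142). The level in EY immune cells was close to that in EY epithelial cells. Scaled to the raw UMI total, 7 epithelial markers summed to 744 and 444 CPM in the immune sums of N. In those of E it was 607 and 281 CPM, in Y 534 and 762 and in EY 309 and 986. In the epithelial sums of EY these markers came to 16340 and 16684 CPM. Whether RNA of epithelial cells added to immune Fosl1 was not tested. Egr1 in immune cells was at 275 and 405 CPM in N, 206 and 271 in E, 339 and 303 in Y and 661 and 383 in EY, where EY1 was the highest library and EY2 lay inside N. In immune EY vs N 3 of 9 members were called, beside 13.6% of 12723 genes, and 0 without N1, N2 or EY1. The YAP effect in immune cells called 0 members by edgeR (3.65% of genes), with 3 at an unadjusted p under 0.05 and 1 called by DESeq2.

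**Figure D3:**
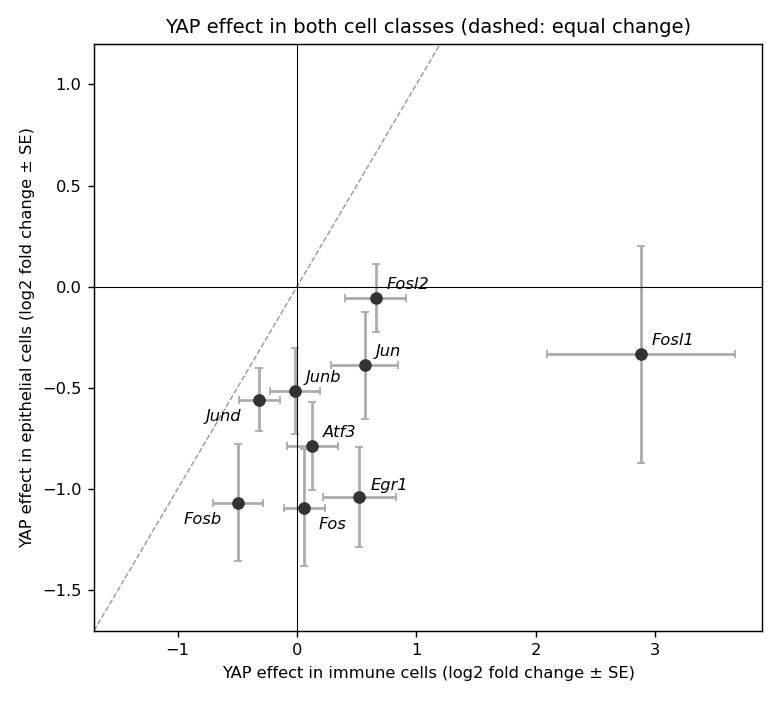
YAP effect (log2 fold change with SE bars) of each gene in immune cells (horizontal axis) and epithelial cells (vertical axis). All 9 points lie below the dashed line of equal change, with Fosl1 far to the right at 2.88 in immune cells.

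The difference between the classes was tested directly, with the library as a block. The log2 change with YAP in epithelial cells minus that in immune cells was -1.21 for Fos (SE 0.26, adjusted p = 0.0311), -1.58 for Egr1 (SE 0.39, adjusted p = 0.0430) and -2.84 for Fosl1 (SE 0.51, adjusted p = 0.0149). These were 3 of 9 members, with 5.52% of 14535 genes called. The count was 0 without EY1, 1 without N1, E1, E2 or EY2, 2 without Y2 and 6 without Y1. Fitted by class, the YAP effect in epithelial and immune cells was -1.09 and 0.06 for Fos and -1.04 and 0.52 for Egr1. For Fosl1 it was -0.33 and 2.88, where immune Fosl1 was at 44.9 and 44.3 CPM in EY and 8.41 and 1.52 in Y. The makeup of the immune cells differed between groups. The sum of 10 immune markers, including those of myeloid cells, was 17658 to 35269 CPM in N, E and Y. In EY1 and EY2 it was 119080 and 109726 CPM.

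Immune cells with a Cd3e or Cd3g UMI, genes of the T cell receptor complex, were therefore summed alone, a choice made after the data were seen. Fos in these cells was at 542 and 497 CPM in N, 479 and 442 in E, 407 and 499 in Y and 315 and 351 in EY. The 2 EY libraries were the lowest of the 8 in these cells, at a log2 difference of EY from N of -0.64 (SE 0.18, adjusted p = 0.204). Fosb was at 282 and 301 CPM in N, 228 and 253 in E, 197 and 254 in Y and 139 and 128 in EY (log2 difference -1.13, SE 0.19, adjusted p = 0.109). Jun was at 352 and 215 CPM in N, 369 and 328 in E, 181 and 371 in Y and 315 and 364 in EY, and Fosl1 was at 1.96 and 1.47 CPM in N and 4.38 and 5.83 in EY, from 11 and 5 UMIs in EY. Jun in EY overlapped N (log2 difference 0.26, SE 0.36, adjusted p = 0.802), and the difference of Fosl1 was 1.58 (SE 0.66, adjusted p = 0.358). No member was called in these cells by edgeR, with 5 at an unadjusted p under 0.05, and 9 genes were called in all (0.0855% of 10528). Of the 9 members 7 had a negative value, with a median log2 difference of -0.45 beside -0.02 over all genes. Junb was at -0.77 (SE 0.26, adjusted p = 0.270) and Jund at -0.61 (SE 0.22, adjusted p = 0.286). In epithelial cells both were at -0.72. Set against these cells, the class difference with YAP was -0.83 for Fos (adjusted p = 0.160), -0.88 for Egr1 (adjusted p = 0.143) and -1.46 for Fosl1 (adjusted p = 0.0907), and none of the 3 passed.

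The share of cells in which a factor was found was compared after each cell was thinned to 2000 UMIs, which left out 5 epithelial and 39 immune cells that were shallower. Fos was found in 83.0% and 63.9% of epithelial cells in N1 and N2, in 73.0% and 59.3% in E, in 65.6% and 40.2% in Y and in 36.1% and 46.0% in EY. The exact Clopper-Pearson 95% intervals, which cover counting error only, were 28.9 to 43.8% for EY1 and 43.8 to 48.2% for EY2. Egr1 was found in 61.9% and 48.7% of cells in N and 16.6% and 23.0% in EY, and Fosb in 69.3% and 51.3% in N and 18.3% and 24.9% in EY. Without thinning the mean share in N and EY was 91.2% and 67.9% for Fos, 88.9% and 58.0% for Egr1 and 86.0% and 54.4% for Fosb. In immune cells Fos was found in 55.7% and 51.9% of cells in N and 51.4% and 47.3% in EY. Fosl1 was found in 8.79% and 9.64% of epithelial cells in N and 7.69% and 7.99% in EY, and in 0.351% and 0.598% of immune cells in N and 6.23% and 5.30% in EY.

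**Figure D4:**
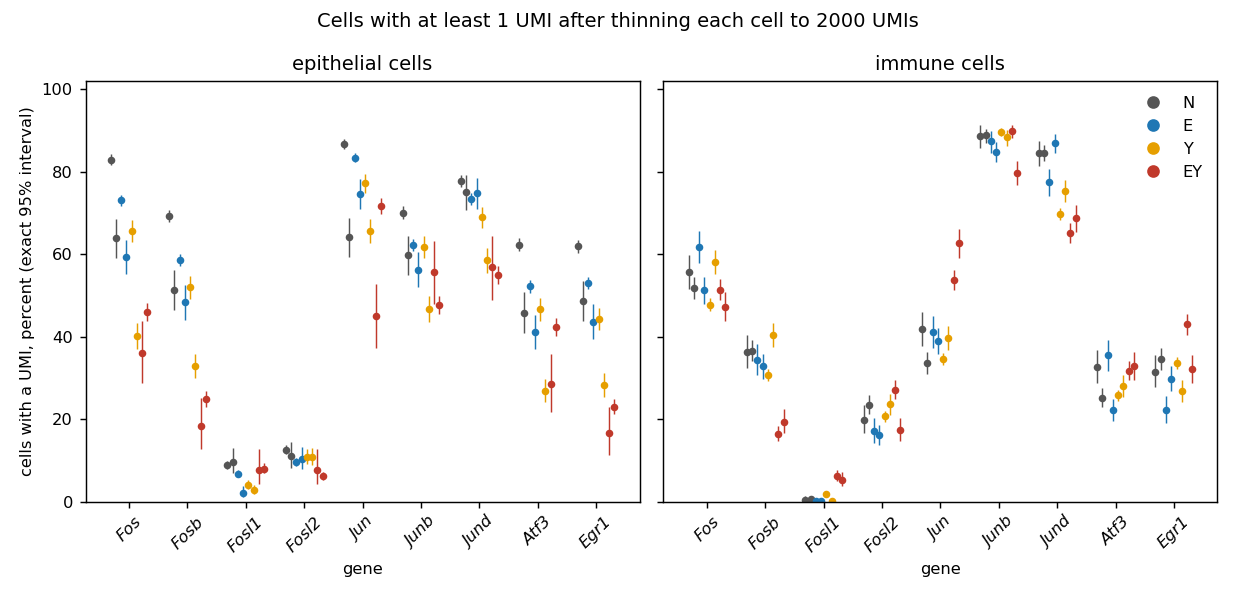
Percent of cells with at least 1 UMI of each gene after thinning to 2000 UMIs, for epithelial (left) and immune (right) cells, with 1 point per library and exact 95% intervals. In epithelial cells the shares of Fosb and Egr1 are lowest in EY1 and EY2, while immune Junb stays between 79.7 and 89.9% in all 8 libraries.

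The factors were found together. At 2000 UMIs a median of 6 of the 9 was found in an epithelial cell of N1 and of 4 in N2, against 2 in EY1 and 3 in EY2. Cells with 5 or more made up 71.0% and 49.2% of epithelial cells in N, 58.3% and 44.7% in E, 49.6% and 25.3% in Y and 18.9% and 23.2% in EY. Cells with none were 1.77% and 2.41% in N and 14.8% and 4.24% in EY. In immune cells the median was 3 or 4 in every library, and cells with 5 or more were 28.3 to 35.3%. Epithelial cells with a Fos UMI held Egr1 more often than cells without one in 8 of 8 libraries, at 30.3 to 69.7% against 5.56 to 25.3%, and Jun at 73.8 to 93.1% against 28.7 to 66.1%.

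**Figure D5:**
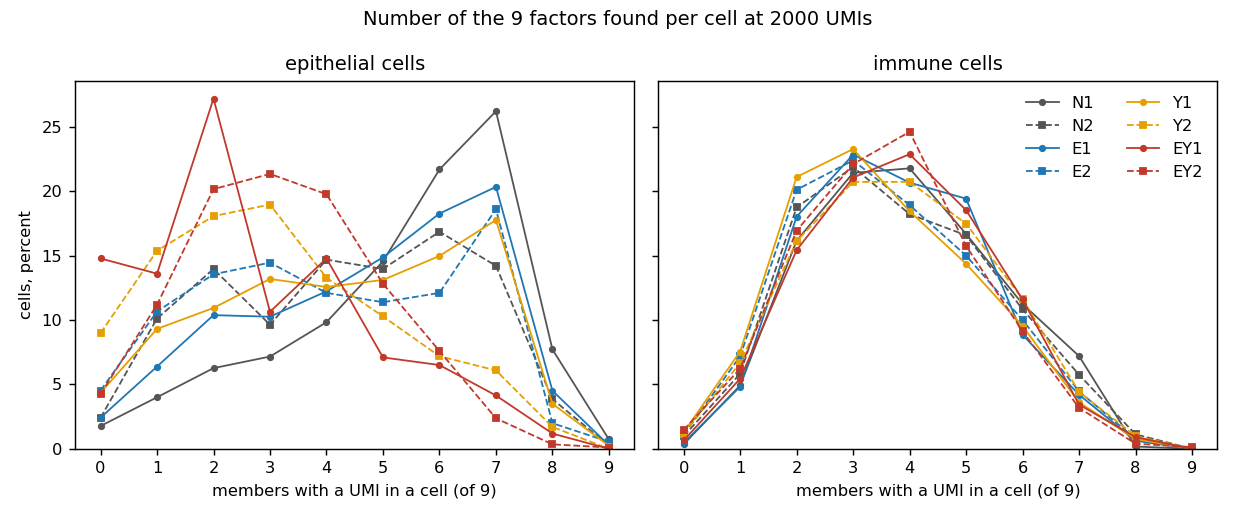
Percent of cells (vertical axis) by the number of the 9 genes found in a cell at 2000 UMIs (horizontal axis), 1 line per library, for epithelial (left) and immune (right) cells. Epithelial cells of N1 peak at 7 genes and those of EY at 2 or 3, while the immune lines of all libraries lie close together.

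Over the 8 epithelial sums the members moved together to different degrees, given as a description since the points share groups and depth. Pearson's r of log2 CPM was 0.871 to 0.981 for the 15 pairs among Fos, Fosb, Junb, Jund, Atf3 and Egr1, a set chosen after the values were seen. Jun had r of 0.628 to 0.793 with these 6. Fosl1 had r between -0.0996 and 0.274 with every other member and Fosl2 between 0.0790 and 0.524. The gene most like Fos among 5096 candidates was Nr4a1, an immediate early nuclear receptor, with r of 0.987, followed by Slc48a1 (0.980). Slc48a1 (0.994) and Nr4a1 (0.988) were also nearest to Egr1, and Pycard (0.992) and Arid4a (0.992) to Fosb. Nearest to Jun were Dnajb1 (0.947), a heat shock gene, and Id1 (0.906), and to Atf3 Rpl13a (0.996) and Arl2 (0.974). Junb was closest to Atp5g2 (0.979) and Ier2 (0.966), Jund to Fundc2 (0.980) and Ier2 (0.974), Fosl2 to Frmd6 (0.975) and Trim24 (0.944) and Fosl1 to Nrbf2 (0.869) and Pdhb (0.866).

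Along differentiation the members changed little on average, while single libraries moved in opposite directions. From basal to suprabasal keratin cells Fos went from 1326 to 1853 CPM in N2 and from 1682 to 1355 in E1. Junb went from 653 to 1078 CPM in N2 and from 671 to 562 in E1. Cells with more Krt13 and Krt4 than Krt5, Krt14 and Krt15 UMIs were compared with the others within 7 libraries, EY1 being left out with 16 such cells. Fosl2 was the 1 member called with a log2 change of 0.28 (SE 0.09, adjusted p = 0.0317), where 32.6% of 11178 genes were called. Its level in basal and suprabasal keratin cells was 60.6 and 90.0 CPM in N1, 65.3 and 74.5 in N2, 44.9 and 46.5 in E1, 46.0 and 62.4 in E2, 61.7 and 70.2 in Y1, 57.1 and 78.4 in Y2, and 32.8 in both of EY2. Suprabasal cells were thus higher in 6 of 7 libraries, and the call was lost without N1, E2, Y1 or Y2. The suprabasal keratin cells of N2 and E2 had a median mitochondrial percentage of 0.355 and 0.633%, and the part of this in the result was not tested. Fos differed by 0.07 (SE 0.10, adjusted p = 0.667). Within basal keratin cells alone the log2 change of EY from N was -1.58 for Fos (adjusted p = 0.0435), -1.62 for Fosb (adjusted p = 0.0255) and -1.63 for Egr1 (adjusted p = 0.0251).

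Other immediate early genes did not all follow. The counts in the lists from here on stand beside 18.8% of all genes called in epithelial EY vs N. Of 20 immediate early genes 1 fell and 2 rose, a share near that background, 16 had a negative value, and their median log2 change was -0.63. Nr4a1 fell from 119 and 62.3 CPM in N to 28.8 and 17.6 in EY (log2 change -2.03, SE 0.48, adjusted p = 0.0305). Gadd45b, a DNA damage and stress gene, rose from 59.1 and 47.7 to 156 and 230 CPM (log2 change 1.86, adjusted p = 0.0150), and Ier3, a survival gene, rose from 92.9 and 78.3 to 240 and 285 CPM (log2 change 1.62, adjusted p = 0.0223). Both were also higher in Y1 and Y2 than in both N libraries. In immune cells, where 13.6% of genes were called in EY vs N, 5 of the 20 rose and 1 fell. Ier3 rose there as well, from 358 and 391.6 to 2802 and 1993 CPM (log2 change 2.68, SE 0.48, adjusted p = 0.0169), while Gadd45b had a difference of 0.44 (adjusted p = 0.264) and Nr4a1 one of -0.55 (adjusted p = 0.230).

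Among 14 possible dimer partners of AP-1, 12 were tested, 2 fell and 0 rose, again a share near the 18.8% of all genes. Maf had a log2 change of -2.98 (SE 0.61, adjusted p = 0.0213), from 69 and 73.5 to 18.7 and 4.25 CPM. Genes tied to MAP kinase, the pathway that induces Fos and Egr1, split: 2 of 14 rose and 4 fell. The list held feedback regulators of the pathway and also Ereg, Areg, Hbegf, Etv4 and Etv5. Dusp5, a phosphatase for ERK, rose from 8.34 and 8.93 to 30.5 and 46.9 CPM (log2 change 2.19, adjusted p = 0.0387). Spred2, an inhibitor of RAS signalling, fell from 39.0 and 39.9 to 18.3 and 9.67 CPM (log2 change -1.61, adjusted p = 0.0211), and Spred1 by 0.82 (adjusted p = 0.0286).

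Of 12 genes known as AP-1 targets 9 were tested, 2 rose and 0 fell in EY vs N, also near the 18.8% of all genes, and the median log2 change was 2.02. Plaur, the urokinase receptor, rose from 2.51 and 2.14 to 29.3 and 11.7 CPM (log2 change 3.04, SE 0.68, adjusted p = 0.0267). The 10 immune markers summed to 52.1 and 51.2 CPM in the epithelial sums of N and 2238 and 645 in EY1 and EY2. Their part in the rise of Plaur was not tested. Sprr1b, a cornified envelope gene, rose from 5.02 and 15.1 to 55.7 and 76.5 CPM (log2 change 2.81, SE 0.49, adjusted p = 0.0152). The 10 heat shock genes, also known to respond to tissue preparation, had 2 that rose and 0 that fell, with a median of 0.09. Hspb1, a small chaperone also made during keratinocyte differentiation, rose from 1565 and 1347 to 3741 and 4694 CPM (log2 change 1.53, adjusted p = 0.0145) and Hspe1, a mitochondrial chaperone, by 0.65 (adjusted p = 0.0242). In 8 genes kept as a check of YAP activity 7 were tested, 4 rose and 0 fell, and Amotl2 rose from 9.22 and 5.60 to 48.3 and 61.9 CPM (log2 change 2.86, adjusted p = 0.0116). The 4 included Yap1 itself, whose reads can come from the transgene, so its rise is no readout of YAP activity.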

How the data were processed

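Single-cell libraries of mouse tongue epithelium were made by the authors with a 3' droplet kit, and the deposited matrices hold unscaled UMI counts per gene and barcode from Cell Ranger 5.0.0 on mm10, per the file headers and the submitters' notes. Barcodes outside the study's cell limits are still in them. Members and gene lists were chosen with earlier results of these data known. The study's limits were applied (genes from 1000 to 5500, UMIs up to 30000, mitochondrial share up to 7%), and no doublet caller was run. Whether libraries of a group came from separate mice was taken from the study's methods, which give 2 mice per genotype.

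UMIs were summed per library and class and tested with edgeR 4.0.16 under R 4.3.3 (quasi-likelihood test, TMM, filterByExpr, 1 mean per group over 8 libraries, or additive terms for YAP and E6-E7), with Benjamini-Hochberg adjustment over all genes tested and a threshold of 0.05. TMM factors were 0.953 to 1.04 in epithelial and 0.696 to 1.17 in immune sums. The SE was derived from the F statistic as |log2 change| over its root. CPM use the TMM-scaled library size, except the summed marker levels, which use the raw UMI total of each sum. The scripts were tested on simulated data. Named list genes were the 2 largest rises and falls per list in EY vs N, limited to called genes averaging 20 CPM or more in either group, and the 2 genes with the highest r to each member. Alternatives were DESeq2 1.42.0, RLE scaling, no low-count filter, other cell limits, thinned cells, basal cells only and leaving out each library. Gene positions were read from GENCODE for GRCm38, and Python 3.11.15, numpy 2.4.6, scipy 1.17.1 and matplotlib 3.10.9 were used. One gene that the naming rule selects is not reported here.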

Additional observations from a re-analysis of the deposited data

Results flagged for a closer look

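The change with active YAP differed between epithelial and immune cells of the same libraries for 3 members, by edgeR's test of the difference itself. The log2 difference was -1.21 for Fos, -1.58 for Egr1 and -2.84 for Fosl1. For Fosl1 the YAP effect was -0.33 in epithelial cells (adjusted p = 0.695) and 2.88 in immune cells (adjusted p = 0.0783). Immune Fosl1 was at 8.41 and 1.52 CPM in Y and 44.9 and 44.3 in EY, where the makeup of the immune cells differed. With immune cells limited to those with a Cd3e or Cd3g UMI the differences were -0.83, -0.88 and -1.46 and none passed the test. Egr1 in those cells was at 170 and 270 CPM in N and 159 and 165 CPM in EY.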

How the results depend on the processing

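With 2 libraries per group and 170 epithelial cells in EY1, the calls depended on single libraries, while directions mostly did not. Fos, Fosb and Egr1 in EY vs N kept their direction in 16 of 16 alternatives each, at log2 changes of -2.14 to -1.18, -2.18 to -1.27 and -2.07 to -1.29, and passed the test in 10, 13 and 13. The members called in EY vs N were 0 without N1, N2 or EY2. The causes of changes with a setting were not tested. No paired analysis was made because replicate numbers follow accession order and no label used here pairs libraries across groups. Epithelial Fos, Jun and Egr1 were higher in replicate 1 than in replicate 2 in every group, as held for no other member. N1 and E1 had 3447 and 4055 epithelial cells at median UMIs of 13656 and 12575. N2 and E2 had 415 and 553 at 22942 and 23570. Whether replicates share a preparation was not tested.

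Counts of members called, main value first, are followed by the number of all genes called. That number moved with the setting too, also when a library was left out. EY vs N went from 3 to 6 in thinned cells, 5 with DESeq2 and 5 with keratins of at least 2%. It was 8 without the low-count filter and 7 without upper limits. Of all genes, 2550 of 13555 were called in the main run, 2310 of 10158 thinned and 2963 of 13555 with DESeq2. At 2% keratins it was 3347 of 12543, without the filter 4273 of 21743 and without upper limits 6042 of 14816. EY vs E went from 2 to 5 thinned, 4 at 2% keratins, 8 without the filter and 6 without upper limits. All genes called went from 2228 of 13555 to 1941 of 10158, 2709 of 12543, 3918 of 21743 and 5729 of 14816. EY vs Y went from 0 to 3 thinned, 1 with DESeq2, 1 at 2% keratins and 4 without the filter. Genes called there went from 6 of 13555 to 773 of 10158, 880 of 13555, 1046 of 12543 and 2117 of 21743. The YAP effect went from 1 to 3 with cells of at least 200 genes, 5 thinned and 5 with DESeq2. It was 5 at 2% keratins, 6 without the filter and 6 without upper limits. For this effect 1217 of 13555 genes were called at first, then 1351 of 13633, 1003 of 10158 and 2762 of 13555. At 2% keratins, without the filter and without upper limits it was 1234 of 12543, 3250 of 21743 and 6131 of 14816. Without the filter E vs N gave 1, Y vs N 4, the E6-E7 effect 3, the immune YAP effect 2 and the suprabasal comparison 0. There 367, 1208 and 765 of 21743 genes were called, then 2475 of 21074 and 3745 of 21720. DESeq2 gave 1 for the immune YAP effect, where it called 1606 of 12723 genes. The class difference went from 3 to 1 with cells of at least 200 genes and 5 with DESeq2. It was 6 without the filter, 7 without upper limits and 0 with T cells. All genes called went from 803 of 14535 to 587 of 14629, 1431 of 14535, 1790 of 23477, 2041 of 15625 and 329 of 13626. Immune EY vs N gave 0 with T cells, where 9 of 10528 genes were called.

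Leaving out 1 library at a time gave 0 to 5 members in EY vs N, 0 to 3 in EY vs E, 0 to 1 in EY vs Y, 0 to 5 for the YAP effect, 0 to 4 in immune EY vs N, 0 to 1 for the immune YAP effect, 0 to 6 for the class difference and 0 to 1 in the suprabasal comparison.

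In EY vs Y the negative members went from 8 to 5 without Y1. Single values were compared across settings for EY vs N, Y vs N, E vs N and the effects of YAP and E6-E7, and those that reversed were not called in the comparison as reported. Thinned cells gave 0.016 for Fosl1 under the E6-E7 effect, whose range over left-out libraries was -0.39 to 0.47. Over left-out libraries E vs N ran from -0.56 to 0.17 for Fos, -0.35 to 0.29 for Fosb, -0.34 to 0.74 for Jun, -0.34 to 0.0098 for Junb, -0.15 to 0.023 for Jund and -0.52 to 0.044 for Egr1, the YAP effect from -0.83 to 0.030 for Fosl1 and -0.22 to 0.086 for Fosl2, and Jun from -0.98 to 0.10 in EY vs N, -0.55 to 0.52 in Y vs N and -0.39 to 0.020 for the E6-E7 effect.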
